A study of Mus musculus with 46 samples.

Results

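Blood left in an organ adds its own microRNAs to the tissue profile, and 8 miRNAs typical of blood cells were followed here through heart, liver and brain of mice while the tissues were kept before RNA isolation. They were chosen by name. The red-cell members were mmu-miR-451a and mmu-miR-144-3p, and the white-cell members were mmu-miR-142a-3p, mmu-miR-142a-5p, mmu-miR-223-3p, mmu-miR-150-5p, mmu-miR-155-5p and mmu-miR-146a-5p; the species prefix is left out from here on. All 8 of the 1881 mouse miRNAs on the array that carry these names were found, and all 8 were among the 815 miRNAs analysed, which were detected on at least 5 arrays.

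The study asked how tissue storage and the loss of RNA integrity alter miRNA profiles. Organs of male C57BL6 mice were cut into 8 pieces, which stayed at room temperature (RT) or in the cold (4 °C) for 0, 1, 3, 6, 12, 24, 48 or 96 h before miRNeasy isolation of total RNA and hybridisation to a 1-colour Agilent array. Every animal carried an Il1a knock-out, which all groups share, so no group holds wild-type blood cells. The 45 arrays comprised 7 of heart and 6 of liver at 4 °C, 8 of brain at 4 °C, and 8 of each tissue at RT. Among the arrays at 4 °C, that of heart at 0 h was left out of the reported fits, and liver pieces of 6 h and 96 h were not analysed here. For poor array quality, the study itself set aside this heart array and the same pieces of liver. The piece labelled 12 h is given a slightly later time in the methods. Each slide held the pieces of 1 tissue at 1 temperature, so slide, animal and temperature cannot be told apart within a tissue. According to the methods, the organs of a temperature came from the same individual, whereas the RINs in the labels, set beside those listed by animal, place liver and brain in the same animal and heart in another. No time point was repeated within a group, and p-values therefore measure the spread between pieces of the same organs, not the spread between animals. Integrity was given as the RNA integrity number (RIN), which falls as RNA is degraded. The RIN was at least 7.3 on all heart and brain arrays at 4 °C, fell to 2.2 in heart and 3.3 in brain after 96 h at RT, and in liver at RT dropped from 7.1 to 2.8 within 6 h.

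MiRNAs are short RNAs that guide repression of messenger RNAs, and the bases called the seed pair with the target. Red cells lose their nucleus but keep a store of mature miRNAs, of which miR-451a is the best known: it is made from a short hairpin cut by Argonaute 2 in place of Dicer, and it shares a primary transcript with miR-144, both under the erythroid factor GATA1. In the white lineage, both arms of miR-142 are found in almost all blood-forming cells, miR-223 marks granulocytes and monocytes, and miR-150 marks mature lymphocytes. MiR-155 is made from the BIC transcript of activated lymphocytes and macrophages, and miR-146a restrains Toll-like receptor signalling. In whole tissue, fewer cells of a type and less RNA per cell cannot be told apart, and resident cells such as microglia, Kupffer cells and endothelium can also contribute to several of the white-cell members.

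The mature sequences are shown because they are what the probes were designed against, and because closely related miRNAs can share a probe's signal. RefSeq (GRCm38.p6) held the mature sequence of 7 of the 8 members, and the remaining member, miR-150-5p, is named only. Capitals mark the seed, bases 2 to 8 from the 5′ end.
mmu-miR-451a: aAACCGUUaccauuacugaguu
mmu-miR-144-3p: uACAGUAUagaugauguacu
mmu-miR-142a-3p: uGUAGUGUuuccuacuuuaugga
mmu-miR-142a-5p: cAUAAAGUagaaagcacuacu
mmu-miR-223-3p: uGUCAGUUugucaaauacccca
mmu-miR-155-5p: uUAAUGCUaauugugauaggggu
mmu-miR-146a-5p: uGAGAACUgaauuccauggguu
mmu-miR-146b-5p: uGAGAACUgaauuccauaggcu
None of the 7 members shared a seed with another member. MiR-146b-5p, which is no member, is shown because it has the seed of miR-146a-5p, the same first 17 bases and 2 mismatches over 22 bases. MiR-451a (chr11:78073186-78073207, plus strand) and miR-144-3p (chr11:78073047-78073066, plus strand) come from hairpins 99 bases apart. The miR-142a arms lie at chr11:87756903-87756925 for 3p and chr11:87756867-87756887 for 5p, both on the plus strand. MiR-223-3p lies at chrX:96242884-96242905 and miR-155-5p at chr16:84714143-84714165, both on the plus strand, and miR-146a-5p lies at chr11:43374435-43374456 on the minus strand.

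Each array reported 268 to 798 detected miRNAs and a summed signal of 153088 to 541770, with 30 spots per miRNA and 0 saturated spots. The tissue labels were borne out: miR-122-5p of hepatocytes was higher on all 14 liver arrays than on any other array, miR-1a-3p of muscle on all 15 heart arrays, and miR-124-3p of neurons on all 16 brain arrays. MiR-451a, miR-142a-3p, miR-223-3p and miR-146a-5p were detected on all 45 arrays, and miR-144-3p and miR-142a-5p on 44. MiR-150-5p was detected on 41 arrays, 10 of them of the 14 liver arrays. MiR-155-5p was detected on 28, namely all 15 heart arrays, 8 of liver and 5 of brain. Values below are log2 values after the authors' variance-stabilising normalisation. Values of undetected miRNAs spread widely, so differences at low values are uncertain. For example, miR-1a-3p ranged from -4.37 to 1.73 on the liver arrays with a RIN over 6, detected on 0 of 6.

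The red-cell miRNAs stood highest in heart. On arrays with a RIN over 6, referred to as intact, miR-451a ranged from 12.14 to 14.98 in heart with a median of 13.30 (n = 13), from 8.51 to 10.88 in liver with a median of 10.23 (n = 6), and from 8.96 to 11.17 in brain with a median of 9.53 (n = 14). The lowest heart piece lay above the highest liver and brain pieces, whereas liver and brain overlapped. The means were 13.45 ± 0.93, 9.87 ± 0.96 and 9.67 ± 0.57 (SD), and in limma with slide as a random block miR-451a was 13.8-fold lower in brain than in heart (log2 difference -3.79 ± 0.32 (SE), adjusted p = 7.58e-13) and 12.1-fold lower in liver than in heart (-3.60 ± 0.40, adjusted p = 2.02e-09). The liver and brain levels, next to each other in the order, differed by -0.19 ± 0.40 (brain minus liver, adjusted p = 0.684). This last difference depended on scaling: it ranged from -2.05 to 0.43 over 16 settings and passed the test in 4 of them, namely both 75th percentile scalings, quantile normalisation and normexp.

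MiR-144-3p followed the same order. It ranged from 8.66 to 11.65 in intact heart with a median of 9.59, from 5.16 to 8.36 in liver with a median of 6.88, and from 5.04 to 7.02 in brain with a median of 5.75. Again no heart piece overlapped with liver or brain. It was lower in brain than in heart by -4.05 ± 0.33 (adjusted p = 3.48e-13) and lower in liver by -3.08 ± 0.42 (adjusted p = 1.17e-07). Its brain level was also below its liver level, by -0.97 ± 0.41 (adjusted p = 0.0337), with overlapping pieces. This brain minus liver difference passed the test in 12 of 16 settings and ranged from -2.94 to -0.35 over them.

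The white-cell members did not follow 1 order. Both arms of miR-142 were lower in brain than in heart and in liver, and their liver minus heart difference did not pass the test. MiR-142a-3p ranged from 7.43 to 10.17 in heart (median 8.37), from 6.61 to 9.88 in liver (median 8.04) and from 5.49 to 7.85 in brain (median 5.97). Heart and liver overlapped over most of their range, and the highest brain piece, that of 1 h at RT, reached into both. The brain level was lower than heart by -2.41 ± 0.32 (adjusted p = 4.37e-08) and lower than liver by -2.01 ± 0.40 (adjusted p = 4.04e-05), and the liver minus heart difference was -0.40 ± 0.41 (adjusted p = 0.409). MiR-142a-5p, the other arm of the hairpin, gave -2.64 ± 0.28 (adjusted p = 1.90e-10), -1.92 ± 0.34 (adjusted p = 8.30e-06) and -0.72 ± 0.35 (adjusted p = 0.0765) for the same contrasts.

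MiR-223-3p, of granulocytes and monocytes, descended from heart over liver to brain. It ranged from 6.998 to 8.68 in heart (median 7.50), 4.97 to 7.19 in liver (median 6.62) and 3.90 to 5.21 in brain (median 4.43). Heart and brain pieces were apart, and liver overlapped with both. All steps passed the test: liver was below heart by -1.27 ± 0.27 (adjusted p = 0.000202), brain below liver by -1.90 ± 0.27 (adjusted p = 1.34e-07), and brain below heart by -3.17 ± 0.22 (adjusted p = 2.76e-15). The liver minus heart step was absent under quantile normalisation, where it was 0.031.

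MiR-150-5p, the lymphocyte miRNA, was as high in brain as in heart and far lower in liver. It ranged from 6.21 to 7.08 in heart (median 6.69), 6.51 to 7.19 in brain (median 6.79) and 1.60 to 4.13 in liver (median 3.23), where 5 of 6 intact arrays detected it. Heart and brain largely overlapped, and no liver piece overlapped with either. Liver was lower than heart by -3.61 ± 0.22 (adjusted p = 3.43e-16), and brain exceeded liver by 3.75 ± 0.21 (adjusted p = 2.12e-17). Brain minus heart was 0.14 ± 0.17 (adjusted p = 0.466), and this small difference changed sign with another scaling, to -0.55 after 75th percentile scaling over all miRNAs and to -0.40 after normexp.

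MiR-155-5p, of activated immune cells, was detected in every intact heart piece and in few of the others. It ranged from 4.49 to 5.71 in heart (median 5.30, detected on 13 of 13 arrays), 1.40 to 2.77 in liver (median 2.48, detected on 2 of 6) and 1.95 to 2.48 in brain (median 2.33, detected on 3 of 14). The groups did not overlap between heart and the others, and most liver and brain values were those of an undetected miRNA. The differences from heart were -2.90 ± 0.17 in liver (adjusted p = 2.43e-16) and -2.95 ± 0.14 in brain (adjusted p = 3.29e-20), and brain minus liver was -0.05 ± 0.17 (adjusted p = 0.795). MiR-146a-5p, by contrast, spanned 5.13 to 6.43 in heart (median 5.83), 4.01 to 6.79 in liver (median 6.08) and 4.89 to 6.66 in brain (median 5.32), so all tissues overlapped. None of its tissue contrasts passed the test (brain minus heart -0.38 ± 0.22, adjusted p = 0.121; liver minus heart -0.04 ± 0.27, adjusted p = 0.925; brain minus liver -0.34 ± 0.27, adjusted p = 0.262), and liver minus heart was 0.57 to 0.76 under 3 other scalings. MiR-146b-5p, its near copy, was detected on 14 of 14 intact brain arrays, 3 of 13 heart arrays and 0 of 6 liver arrays, with means of 5.61 ± 0.43, 2.11 ± 0.25 and 1.52 ± 0.55. How far the probes tell the pair apart was not tested.

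**Figure D1:**
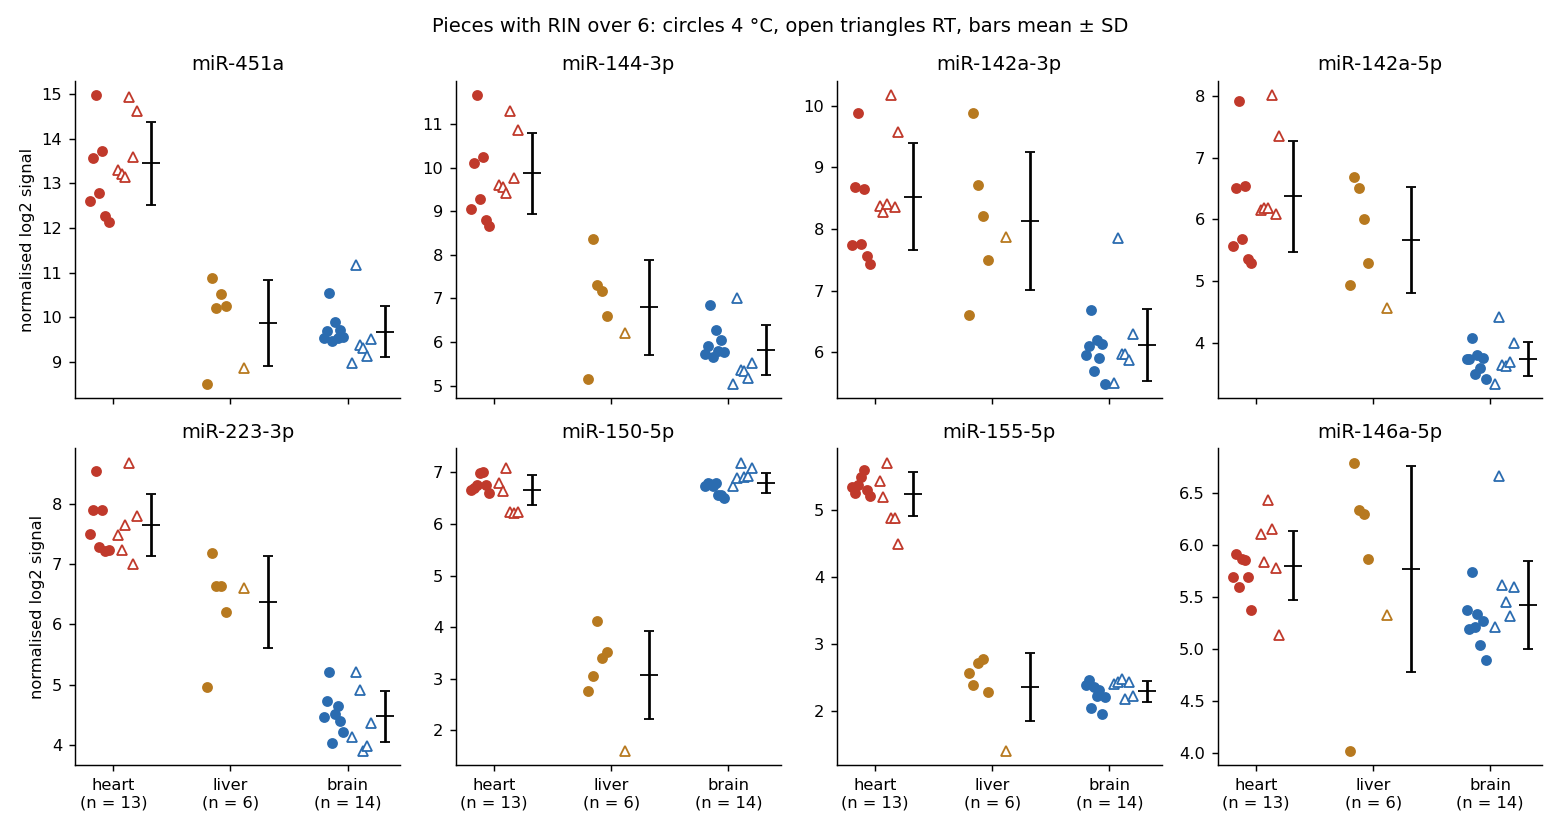
Log2 values of each member on the arrays with a RIN over 6, by tissue (heart n = 13, liver n = 6, brain n = 14); points are tissue pieces and bars give the mean and SD. The heart pieces of miR-451a, miR-144-3p and miR-155-5p lie above all others, miR-150-5p is low in liver alone, and miR-146a-5p overlaps in the 3 tissues.

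In total, 6 of 8 members were lower in brain than in heart, beside 22% of all 815 miRNAs, and 0 were higher, beside 47.1%. The median difference was -2.80 for the members and 0.44 for all miRNAs. Between liver and heart, 5 of 8 members were lower, beside 44.9% of all miRNAs, with medians of -2.09 and -0.60. Between brain and liver, 5 of 8 were called, of which 1 was higher and 4 lower in brain. Of all miRNAs 72.5% were called, 57.9% higher and 14.6% lower in brain. The 6 calls between brain and heart and the calls of miR-451a, miR-144-3p, miR-150-5p and miR-155-5p between liver and heart passed in all 16 settings tried. Their size depended on the setting: between liver and heart it ranged from -4.07 to -1.81 for miR-451a, from -3.59 to -1.602 for miR-144-3p, from -4.35 to -1.35 for miR-150-5p and from -3.74 to -0.86 for miR-155-5p. Each tissue rests on 2 slides and at most 2 animals. In liver, 5 of the 6 intact pieces came from the 4 °C slide and 1, that of 0 h, from the RT slide. The liver contrasts therefore rest mainly on 1 slide.

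Pieces of the same heart differed widely in red-cell miRNAs. At 4 °C the heart pieces read 12.60, 13.58, 14.98, 12.78, 13.73, 12.28 and 12.14 for miR-451a at 1, 3, 6, 12, 24, 48 and 96 h, a range of 7.16-fold, with the highest piece at 6 h. At RT the intact heart pieces read 13.30, 13.22, 13.15, 14.94, 13.59 and 14.62 from 0 to 24 h, a range of 3.46-fold. The order of the pieces was not that of storage time, and the 6 h piece was the highest on both slides. The miR-144-3p pieces at 4 °C spanned 7.95-fold, those of miR-142a-3p 5.48-fold and those of miR-142a-5p 6.24-fold. By contrast, miR-150-5p spanned 1.32-fold, miR-155-5p 1.31-fold and miR-146a-5p 1.45-fold on the same slide. On the RT slide the intact pieces spanned 3.71-fold for miR-144-3p, 3.69-fold for miR-142a-3p and 3.78-fold for miR-142a-5p, but also 1.83-fold for miR-150-5p, 2.33-fold for miR-155-5p and 2.46-fold for miR-146a-5p. MiR-223-3p spanned 2.51-fold at 4 °C and 3.20-fold at RT. The contrast between the members was thus wide at 4 °C and smaller at RT.

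Over both slides, 5 members varied more from piece to piece than the median miRNA and 3 about as much as it did. The within-slide SD over intact heart pieces was 0.91 for miR-451a, 0.95 for miR-144-3p, 0.85 for miR-142a-3p, 0.89 for miR-142a-5p and 0.54 for miR-223-3p, against a median of 0.29 over the 330 miRNAs detected on all these arrays. Only 13 to 22 of the 330 had a larger SD than the first 4 of these, and 61 had a larger one than miR-223-3p. The SDs of miR-150-5p, miR-155-5p and miR-146a-5p were 0.27, 0.31 and 0.33.

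In heart, the variable members moved together. With slide means removed, miR-144-3p followed miR-451a with r = 0.998 and rho = 0.995 over 13 pieces, and its change was close to equal (slope 1.04). MiR-142a-3p gave r = 0.983 and rho = 0.879, miR-142a-5p r = 0.983 and rho = 0.868, and miR-223-3p r = 0.870 and rho = 0.736 with a flatter slope of 0.51. The permutation p of r was 1e-05, 3.00e-05, 5.00e-05 and 0.000370 in this order, and 4.67e-05, 0.000105, 0.000117 and 0.000647 after Benjamini-Hochberg adjustment over 14 relations, where 1e-05 is the smallest p that the 100000 resamples can give. For rho the permutation p was 1e-05, 0.000480, 0.000630 and 0.00834, adjusted to 7e-05, 0.00168, 0.00176 and 0.0146. The r was 0.999, 0.994, 0.995 and 0.980 within the 4 °C slide and 0.997, 0.974, 0.965 and 0.770 within the RT slide. Without the 2 pieces farthest from the median of miR-451a, r was 0.997, 0.970, 0.970 and 0.716. For the other members the relation did not pass the test: r was -0.30 for miR-150-5p (permutation p = 0.295, adjusted 0.376), -0.33 for miR-155-5p (p = 0.235, adjusted 0.329) and -0.14 for miR-146a-5p (p = 0.662, adjusted 0.713), with rho of -0.24, -0.28 and 0.02 (permutation p of 0.413, 0.341 and 0.950, adjusted 0.445, 0.434 and 0.950). Their r differed in sign between the slides, at 0.26, 0.33 and 0.24 at 4 °C and -0.75, -0.78 and -0.42 at RT. The pieces of a slide come from 1 organ, so n counts pieces and not animals.

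Other values that moved with miR-451a among the heart pieces are given as a description. Of 329 miRNAs detected on all 13 arrays, 22 (6.69%) had an r of at least 0.8 with miR-451a, and the median r was 0.09. Of the wider red-cell names, miR-144-5p, the other arm of miR-144, gave r = 0.996, miR-486a-5p 0.941, miR-16-5p 0.952, miR-25-3p 0.982 and miR-92a-3p 0.953. By contrast, miR-486a-3p and miR-486b-3p of the same list gave 0.21 and 0.25. The 6 miRNAs of vessels and stroma ranged in r from -0.43 for miR-126a-3p to 0.25 for miR-199a-3p, and the muscle miRNA miR-1a-3p gave -0.67. The r with RIN was -0.14, with storage time -0.37 and with the total signal of the array 0.10. How far blood volume, piece or slide position set the level was not tested.

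**Figure D2:**
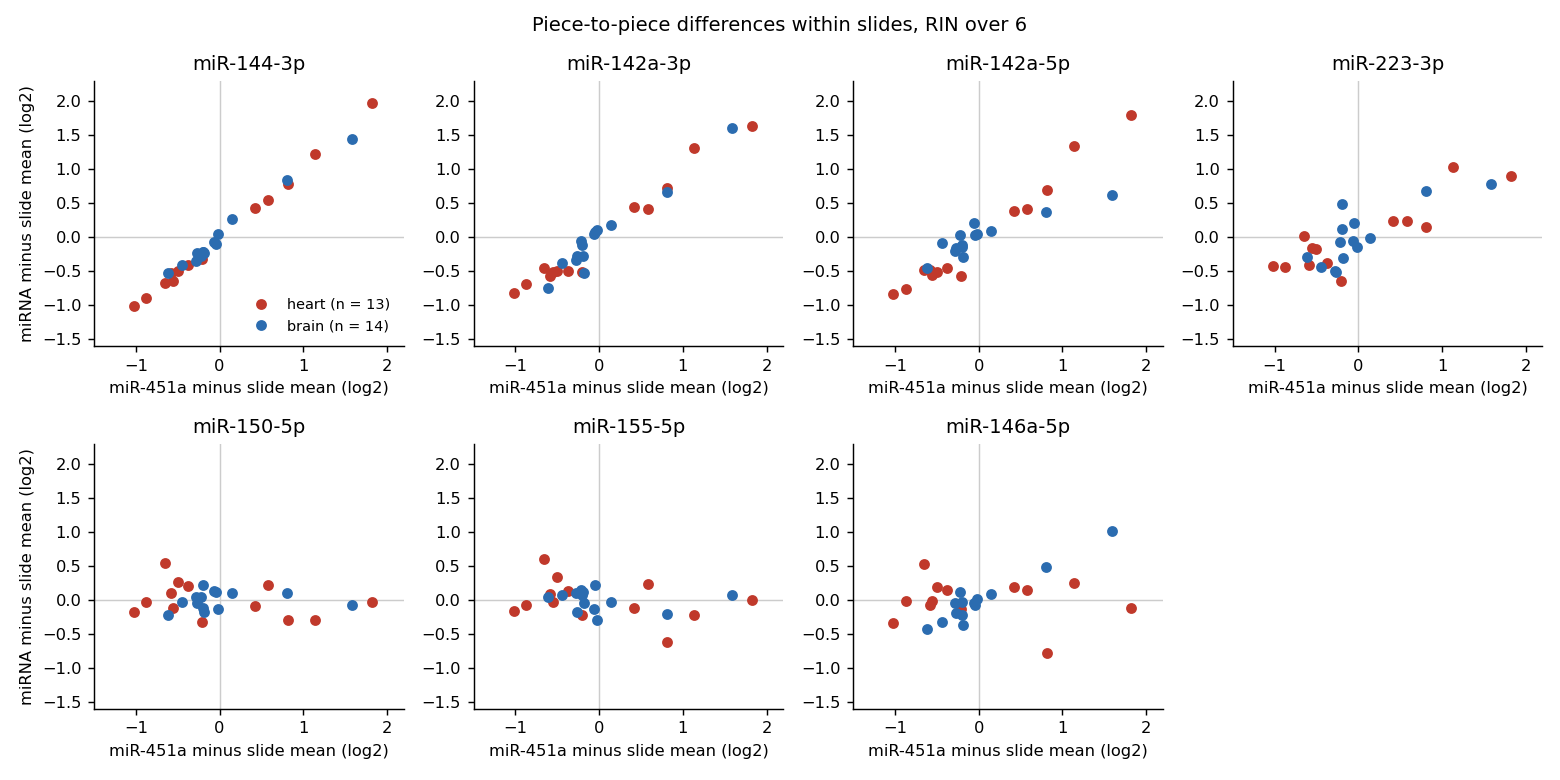
Each member against miR-451a over intact heart (n = 13) and brain (n = 14) pieces, both as log2 values after removal of the slide mean; each point is 1 piece. MiR-144-3p lies on a line with miR-451a (r = 0.998 in heart and 0.993 in brain), the miR-142a arms lie close to one, and miR-150-5p is flat.

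In brain the members that moved with miR-451a in heart did so too, as did miR-146a-5p and much of the array. Over 14 intact pieces, r was 0.993 for miR-144-3p, 0.971 for miR-142a-3p, 0.904 for miR-142a-5p, 0.784 for miR-223-3p and 0.953 for miR-146a-5p, with rho of 0.978, 0.877, 0.811, 0.727 and 0.688. The permutation p of r was 1e-05, 1e-05, 5.00e-05, 0.00171 and 0.000270, adjusted to 4.67e-05, 4.67e-05, 0.000117, 0.00266 and 0.000540, and that of rho was 1e-05, 0.000270, 0.000870, 0.00507 and 0.00991, adjusted to 7e-05, 0.00126, 0.00203, 0.0101 and 0.0154. Within the 4 °C slide r was 0.988, 0.882, 0.873, 0.829 and 0.811, and within the RT slide 1.00, 0.994, 0.920, 0.785 and 0.995. Leaving out the 2 farthest pieces, which include the RT piece of 1 h, gave 0.956, 0.876, 0.773, 0.446 and 0.722, so that the relation of miR-223-3p in brain rests on those pieces. MiR-150-5p gave r = 0.12 and rho = 0.27 (permutation p = 0.714 and 0.386, adjusted 0.714 and 0.445), and miR-155-5p -0.14 and -0.26 (permutation p = 0.652 and 0.335, adjusted 0.713 and 0.434). Of all miRNAs detected on the 14 arrays, 110 of 434 (25.3%) had an r of at least 0.8 with miR-451a, and the median r was 0.55. Total signal gave 0.73 and miR-124-3p 0.704. The miRNAs of vessels and stroma ranged in r from -0.69 for miR-145a-5p to 0.918 for miR-126a-3p. Their part in the brain relations was not tested.

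With storage at RT, 7 of the 8 members fell. In liver, where integrity was lost first, miR-451a read 8.86, 10.30, 10.43, 10.36, 9.76, 8.01, 6.30 and 6.04 at 0, 1, 3, 6, 12, 24, 48 and 96 h. It was low at 0 h, flat from 1 to 6 h and lowest at 48 and 96 h, a fall of 21.0-fold from 3 to 96 h and of 7.02-fold from 0 to 96 h. MiR-142a-3p went further, from 7.87, 10.22, 9.79, 9.45 and 8.66 at 0 to 12 h to 5.54, 3.36 and 2.07 at 24, 48 and 96 h, a fall of 211-fold from 3 to 96 h and of 55.9-fold from 0 to 96 h. The 3 latest pieces lay below all earlier ones for both.

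MiR-144-3p read 6.20, 7.78, 7.80, 7.67, 6.91, 4.18 and 2.52 from 0 to 48 h in liver at RT and was not detected at 96 h. MiR-142a-5p read 4.57, 7.33, 7.27, 6.09, 5.24 and 3.56 from 0 to 24 h, was not detected at 48 h and read 1.64 at 96 h. For both, the 24 h piece lay below every earlier one, as for miR-451a. MiR-223-3p read 6.60, 7.10, 7.22, 6.89, 6.14, 4.41, 3.07 and 2.55, a fall of 25.5-fold from 3 to 96 h and of 16.6-fold from 0 to 96 h. MiR-146a-5p read 5.33, 6.63, 6.36, 6.09, 5.36, 3.58, 1.61 and 1.85, a fall of 22.9-fold from 3 and of 11.1-fold from 0 h. MiR-150-5p read 3.91, 4.21 and 2.23 at 1, 3 and 6 h and 1.51 at 24 h, and was not detected at 0, 12, 48 or 96 h. From 3 to 96 h, 7 of 8 members fell by more than 1 log2 unit and 1 rose, beside 38.4% and 42.0% of all miRNAs.

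MiR-155-5p was the exception. In liver at RT it was not detected at 0 h, read 3.96, 3.28 and 1.93 at 1, 3 and 6 h, was not detected at 12 h, and read 1.18, 2.29 and 4.79 at 24, 48 and 96 h. The last piece, with a RIN of 2.3, was the highest of the series in liver, 12.2-fold above that of 24 h. In heart at RT, where miR-155-5p was detected throughout, it read 5.44, 5.19, 5.71, 4.88, 4.88, 4.49, 4.97 and 4.04, with the lowest value at 96 h.

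In heart and brain at RT the members changed later and less. MiR-451a in heart read 14.18 at 48 h and 12.67 at 96 h, and in brain 8.96, 11.17, 9.38, 9.31, 9.14, 9.52, 9.11 and 9.09 from 0 to 96 h. The heart value at 96 h was the lowest on its slide, and the brain value at 96 h lay among the earlier ones. MiR-150-5p, which varied little between pieces, showed the last step more plainly: in heart it read 6.79, 6.63, 7.08, 6.24, 6.21, 6.24, 6.38 and 5.17, and in brain 6.75, 6.89, 7.19, 6.92, 6.93, 7.09, 6.37 and 5.46. In both tissues the 96 h piece was the lowest. From 3 to 96 h, 4 of 8 members fell by more than 1 log2 unit in heart and 4 in brain, beside 34.5% and 31.8% of all miRNAs.

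**Figure D3:**
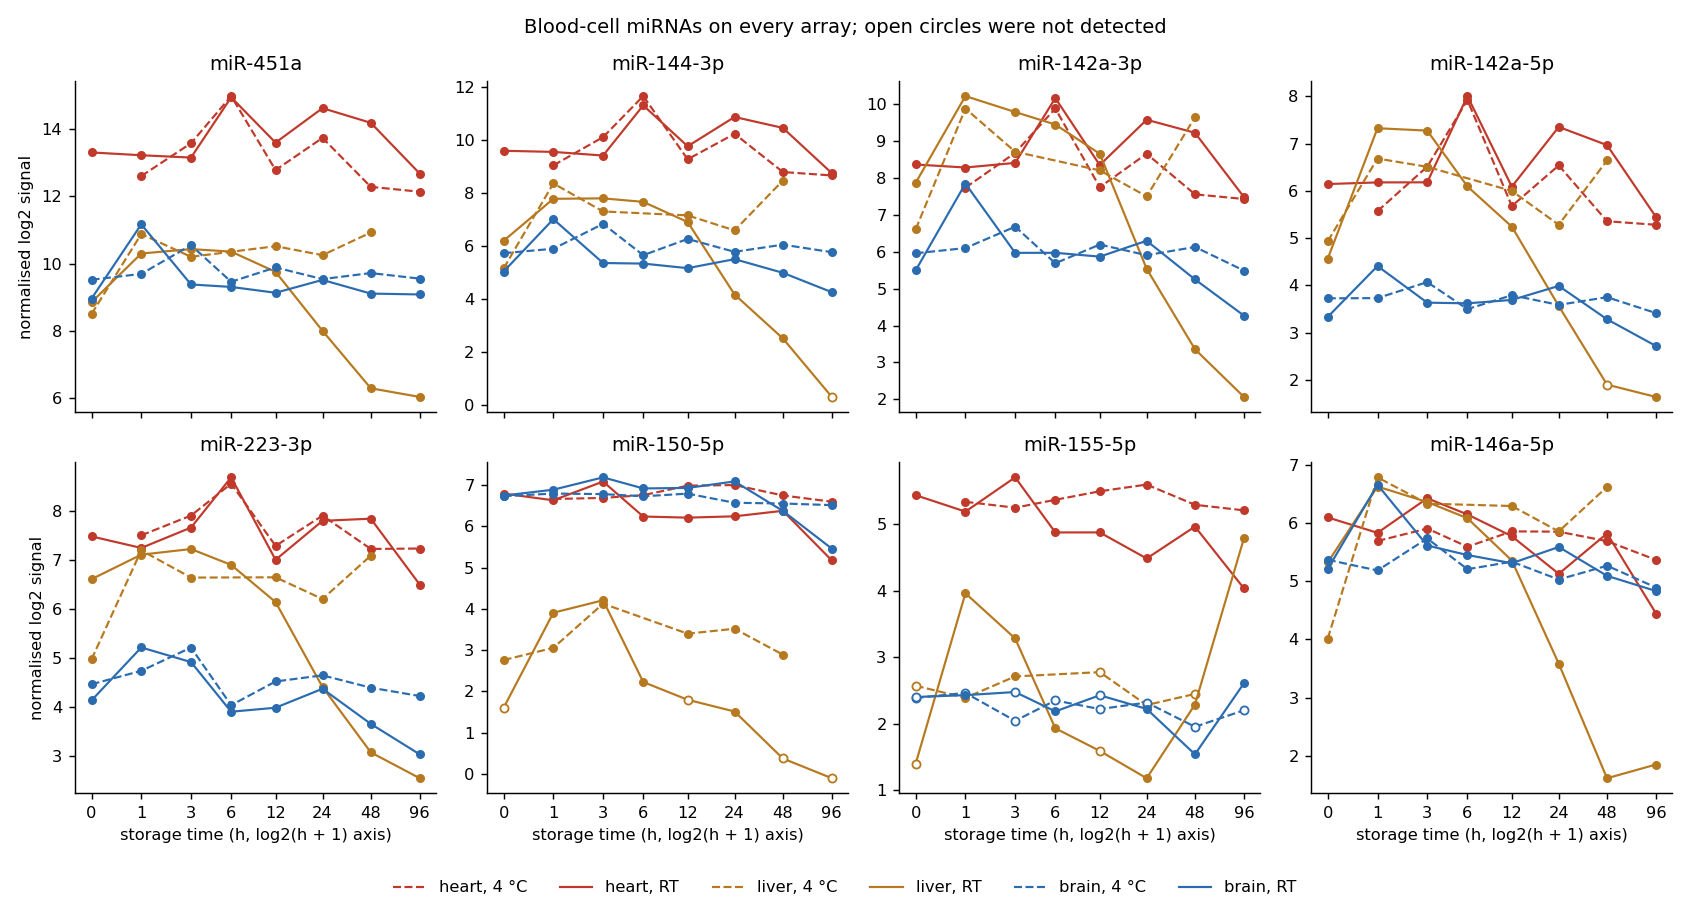
Log2 value of each member against storage time (axis log2 of hours plus 1), with 1 line per slide (3 tissues at 4 °C and at RT) and open circles where the miRNA was not detected. The liver line at RT ends below its 3 h value for every member except miR-155-5p, which reads 4.79 at 96 h, whereas the lines at 4 °C have no common direction.

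In a limma fit with slide as a block and a slope for each slide, the mean slope at RT over the 3 tissues was below 0 for 7 of 8 members, beside 38.8% of all miRNAs called lower and 44.2% called higher. The slope was -0.93 ± 0.15 log2 units per day for miR-142a-3p (adjusted p = 7.28e-07), -0.82 ± 0.13 for miR-144-3p (adjusted p = 1.05e-06), -0.63 ± 0.10 for miR-146a-5p (adjusted p = 1.11e-06) and -0.62 ± 0.09 for miR-223-3p (adjusted p = 4.44e-07). MiR-142a-5p fell by 0.60 ± 0.13 per day (adjusted p = 5.92e-05), miR-150-5p by 0.52 ± 0.08 (adjusted p = 7.53e-07) and miR-451a by 0.49 ± 0.12 (adjusted p = 0.000417). The slope of miR-155-5p was 0.06 ± 0.09 (adjusted p = 0.549), and with the 48 and 96 h pieces of liver at RT left out it fell below 0, with an adjusted p of 0.00162. The median slope was 0.07 per day over all miRNAs and -0.61 over the members.

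The slopes were steepest in liver. There the slopes at RT were -2.04 ± 0.25 per day for miR-142a-3p, -1.91 ± 0.23 for miR-144-3p, -1.33 ± 0.22 for miR-142a-5p, -1.26 ± 0.17 for miR-146a-5p, -1.24 ± 0.16 for miR-223-3p, -1.14 ± 0.21 for miR-451a and -0.84 ± 0.14 for miR-150-5p, whereas miR-155-5p rose by 0.49 ± 0.16. The slopes of the members lay between -0.38 and -0.16 in heart and between -0.53 and -0.01 in brain. The difference between the tissues passed the F test for 7 of 8 members, beside 36.1% of all miRNAs, with adjusted p from 0.000121 for miR-144-3p to 0.0146 for miR-155-5p, and 0.0757 for miR-150-5p, which missed it. Without the liver slide at RT, 5 of 8 members passed the test with a mean slope below 0. These were miR-142a-3p, miR-146a-5p, miR-150-5p, miR-223-3p and miR-155-5p. Both red-cell members, miR-451a and miR-144-3p, did not pass it, nor did miR-142a-5p. In that setting 0 members passed the test for a difference between heart and brain. The share of all miRNAs in that setting is not given here, so these counts are not read as particular to the members. The median slope of all miRNAs in liver at RT was 0.15 per day.

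At 4 °C, 0 of 8 members changed with time in limma, beside 6.01% of all miRNAs. At an unadjusted p under 0.05 the counts were 0 of 8 and 189 of 815 (23.2%). The slopes lay between -0.40 and -0.04 per day in heart, between -0.14 and -0.05 in brain and between -0.14 and 0.68 in liver, where the SE was largest and the median of all miRNAs was 0.32. In liver at 4 °C, miR-451a read 8.51, 10.88, 10.20, 10.52, 10.25 and 10.93 at 0, 1, 3, 12, 24 and 48 h. The 0 h piece was lowest and the last piece, with a RIN of 3.4, was highest. The last piece read 9.65 for miR-142a-3p, near the top of 6.61 to 9.88, while the RT piece of 6 h, with a RIN of 2.8, read 9.45.

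The difference between the temperatures passed the test for 6 of 8 members, all with a lower slope at RT, beside 28% of all miRNAs. RT minus 4 °C was -0.94 ± 0.26 per day for miR-142a-3p (adjusted p = 0.00414), -0.90 ± 0.24 for miR-144-3p (adjusted p = 0.00284), -0.71 ± 0.18 for miR-146a-5p (adjusted p = 0.00214), -0.65 ± 0.17 for miR-223-3p (adjusted p = 0.00250), -0.51 ± 0.22 for miR-451a (adjusted p = 0.0492) and -0.44 ± 0.15 for miR-150-5p (adjusted p = 0.0145). MiR-142a-5p gave -0.53 ± 0.22 (adjusted p = 0.0528) and miR-155-5p 0.12 ± 0.16 (adjusted p = 0.570). The count was 2 without the liver slide at RT and 3 without the 96 h arrays, where the shares of all miRNAs are not given here.

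**Figure D4:**
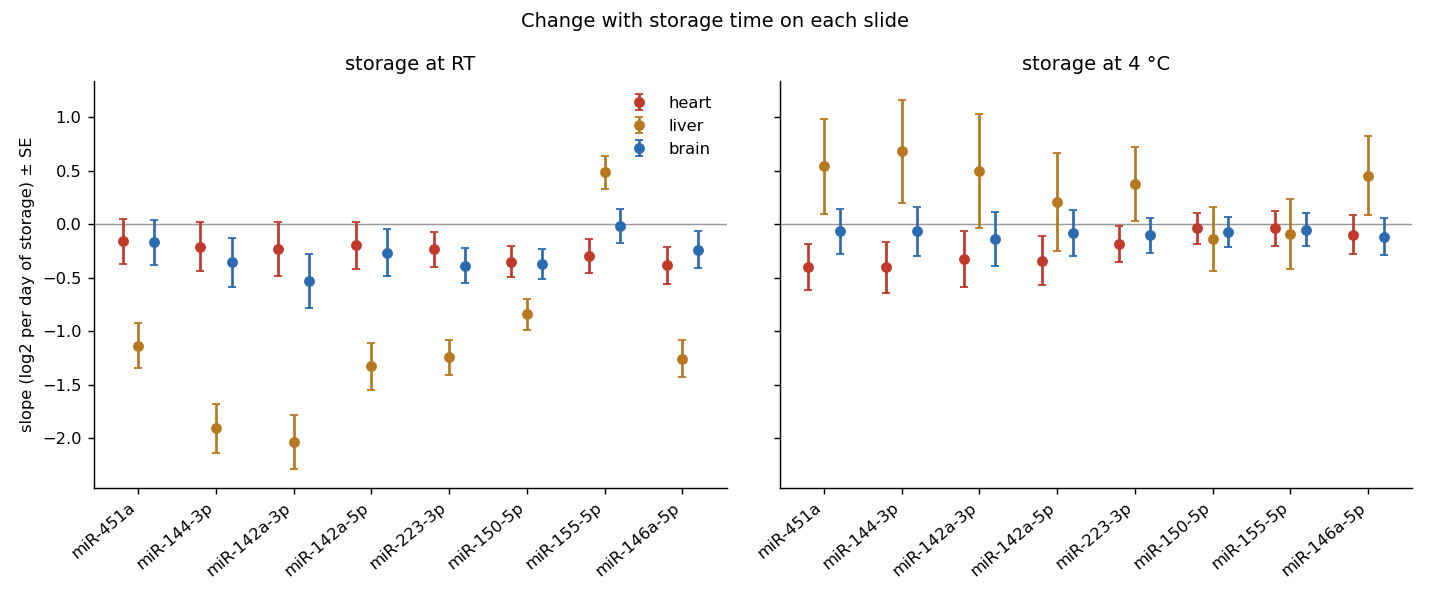
Slope of each member with storage time on each slide, in log2 units per day with SE, at RT and at 4 °C for the 3 tissues. At RT the liver slopes lie below those of heart and brain for every member except miR-155-5p, and at 4 °C the slopes lie between -0.40 and 0.68.

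The late rise of miR-155-5p in liver was examined at the level of its 2 probes. In liver at RT, the background-subtracted signal of the first probe was 7.14, 6.67, 3.81, 2.96, 3.39 and 32.2 after 1, 3, 6, 24, 48 and 96 h. That of the second was 2.74, 2.29, 1.56, 2.53, 3.11 and 34.2 in the same pieces. The ratio of the first to the second was thus over 2 at 1, 3 and 6 h and near 1 from 24 h on. In intact heart, where miR-155-5p was well detected, the ratio stayed between 2.22 and 3.30, and at 96 h at RT the heart signals were 22.4 and 10.3. In brain at RT the signals were 6.24 and 5.73 at 96 h and 2.85 and 2.68 at 48 h. The rise at 96 h in liver was thus seen by both probes, in a ratio unlike that of heart. The 2 probes of miR-451a kept a ratio of 1.31 to 1.41 in intact heart and 1.48 to 1.59 on the liver arrays with a RIN of 6 or lower. On the latter arrays the ratio of miR-142a-5p was also steady, at 0.97 to 1.05. That of miR-146a-5p ranged from 4.02 to 12.7, against 3.93 to 4.81 in intact liver. For miR-223-3p it ranged from 1.68 to 3.05, against 2.41 to 2.96. A shifted ratio in degraded liver was thus not particular to miR-155-5p. Whether the late signal of miR-155-5p stems from this miRNA was not tested.

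**Figure D5:**
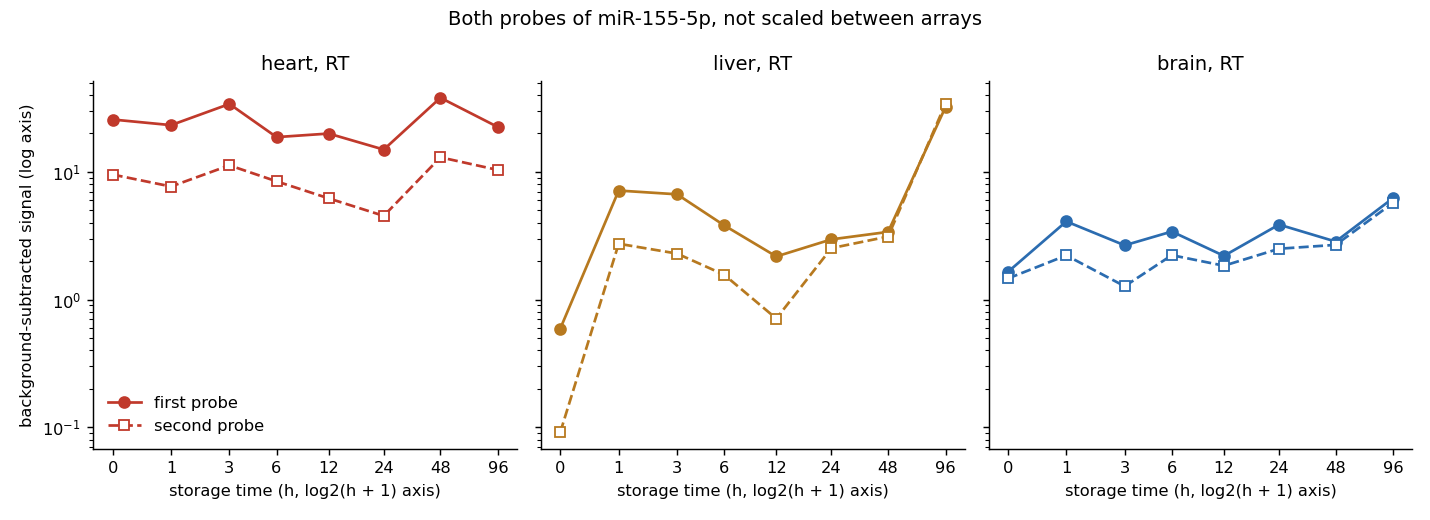
Background-subtracted signal (log axis, not scaled between arrays) of both miR-155-5p probes against storage time at RT in heart, liver and brain. The first probe reads above the second in heart at every time, and both meet in liver at 24 to 96 h, where they read 32.2 and 34.2 at 96 h.

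Across the 45 arrays, with slide as a block, 2 of 8 members were higher at higher RIN in limma, beside 25.9% of all miRNAs. MiR-150-5p rose by 0.23 ± 0.06 log2 units per RIN unit (adjusted p = 0.000898) and miR-223-3p by 0.19 ± 0.08 (adjusted p = 0.0388). MiR-146a-5p, at 0.19 ± 0.09, missed the threshold (adjusted p = 0.0510), and so did miR-142a-3p, at 0.24 ± 0.13 (adjusted p = 0.108), and miR-451a, at 0.10 ± 0.09 (adjusted p = 0.337). The count depended on scaling between arrays: it was 7 or 8 under 4 other scalings and 0 without scaling. Shares of all miRNAs called under those scalings are not given beside it. The median slope was 0.18 for the members and -0.04 for all miRNAs.

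Grouping the RT arrays by a RIN below 6 gave no call among the members. In liver (6 arrays below 6 against 2 others), miR-142a-3p differed by -2.57 ± 1.44 (adjusted p = 0.129) and miR-451a by -1.10 ± 0.96 (adjusted p = 0.313), and 0 of 8 members passed in limma, beside 48.7% of all miRNAs. In heart (2 against 6) the differences lay between -0.77 and -0.38 and 0 of 8 passed, beside 34.6%, and in brain (2 against 6) between -1.48 and -0.28 and 0 of 8 passed, beside 11.9%. No member reached an unadjusted p under 0.05 in any of the 3, beside 461 of 815 miRNAs in liver, 364 in heart and 285 in brain. In liver the low-RIN group holds both the early pieces, in which the members were high, and the late ones, in which they were low. The 3 tissues were in 1 fit with a shared estimate of the spread. The SE was therefore the same in each tissue, as at 1.44 for miR-142a-3p, and the liver pieces also set it for heart and brain. The 0 of 8 in heart and brain is thus not read as an absence of change there. Comparing 8 liver arrays with a RIN of 6 or lower with 6 of a higher RIN by the exact two-sided Wilcoxon-Mann-Whitney test also called 0 of 8 members, beside 27.7% of all miRNAs. At an unadjusted p under 0.05 the counts were 0 of 8 and 335 of 815 (41.1%), and limma on the same arrays called 0.

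The wider lists of blood-cell miRNAs were counted in the same fits. Of 10 further red-cell names, 9 were on the array and 7 were analysed, and of 10 further white-cell names, 5 were analysed. At RT, 5 of the 7 red-cell miRNAs fell and 0 rose, and of the 5 white-cell miRNAs 3 fell and 1 rose, beside 38.8% of all miRNAs that fell and 44.2% that rose. All 6 miRNAs of vessels and stroma fell at RT as well, and 0 of the 3 lists had a call at 4 °C, beside 6.01% of all miRNAs. Between brain and heart, 6 of 7 red-cell and 6 of 6 vessel and stroma miRNAs were lower in brain, but of the white-cell list 4 of 5 were higher and 1 lower, beside 22% of all miRNAs lower and 47.1% higher. MiR-144-5p was detected on 15 heart, 9 liver and 2 brain arrays, and miR-150-3p on 7 arrays. MiR-223-5p, miR-142b, miR-155-3p and miR-146a-3p, the other products of the members' hairpins or of their opposite strand, were detected on 0 of 45 arrays.

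Over all 45 arrays, with slide means removed, the analysed miRNAs outside the members with the pattern most like miR-451a were miR-25-3p (r = 0.964), miR-106b-5p (r = 0.954) and miR-15b-5p (r = 0.953), among 450 detected on at least 20 arrays. Those most like miR-142a-3p were miR-19a-3p (r = 0.983), miR-301a-3p (r = 0.973) and miR-106b-5p (r = 0.972). These values describe arrays that share slides and time courses.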

How the data were processed

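Total RNA of stored mouse tissue pieces had been hybridised to 1-colour Agilent arrays (release 21) and read with Feature Extraction 10.10.1.1. The authors deposited log2 values after variance-stabilising normalisation, which were used here as given, and spot intensities per array. The deposited intensities, background-subtracted and averaged over spots of a probe, served for the probe signals, detection calls and other scalings, with 30 spots per miRNA; precision is limited by how many arrays there are. MiRNAs detected on at least 5 of 45 arrays (815) were analysed. Fits used limma 3.58.1 and statmod 1.5.0 in R 4.3.3, with Benjamini-Hochberg adjustment over all 815 miRNAs at 0.05. Slide was a fixed block for RIN and time and a random block (correlation 0.0203) between tissues. Correlations were tested by permutation in Python 3.11.15 with numpy 2.4.6, pandas 2.3.3 and scipy 1.17.1. Groups came from the sample labels. The members and lists were chosen with earlier results of these data known. The rule for named miRNAs was all 8 members, the other arms, and the 3 miRNAs of highest r with miR-451a and with miR-142a-3p; others are named where a value bears on a member. Normexp (offset 50) used median spot and background signals in place of mean signals. The fits were tested on simulated data. The alternatives were other scalings, detection filters, adjustments, blocks, time scales and sets of arrays.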

Additional observations from a re-analysis of the deposited data

Results flagged for a closer look

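In 9 of 48 combinations of member and slide, 1 array lay far from the rest of its slide. Several members moved together and each slide is a time course, so this count cannot be set against a chance rate of 1 in 20. The gap to the nearest other array, as a share of the slide's range, was 0.702 for miR-451a and 0.664 for miR-146a-5p in the 0 h liver piece at 4 °C, which were the lowest of their slide at 8.51 and 4.01. That piece was also the lowest of its slide for miR-122-5p (12.67), miR-126a-3p (8.10) and miR-16-5p (7.28), though not for miR-155-5p. It detected 268 miRNAs, the fewest of the 45 arrays. In the 1 h brain piece at RT it was 0.748 for miR-451a, 0.547 for miR-144-3p and 0.572 for miR-146a-5p, the highest of their slide at 11.17, 7.02 and 6.66. The 3 h brain piece at 4 °C was the highest for miR-451a, at 10.55, with a share of 0.609. For miR-150-5p, the 96 h pieces at RT were the lowest of heart (5.17, share 0.543) and of brain (5.46, share 0.530), and for miR-155-5p the 48 h brain piece at RT (1.54, share 0.603).

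The slope with storage time differed between RT and 4 °C for 6 members, with limma adjusted p of 0.00414 for miR-142a-3p, 0.00284 for miR-144-3p, 0.00214 for miR-146a-5p, 0.0145 for miR-150-5p, 0.00250 for miR-223-3p and 0.0492 for miR-451a. The slopes at RT differed between the tissues for 7 members, with limma adjusted p of 0.000290 for miR-142a-3p, 0.00497 for miR-142a-5p, 0.000121 for miR-144-3p, 0.00239 for miR-146a-5p, 0.0146 for miR-155-5p, 0.00152 for miR-223-3p and 0.00953 for miR-451a.

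On the heart array of 0 h at 4 °C, which was set aside, 6 of the 8 members were detected. MiR-451a read 9.57 and miR-144-3p 6.10 there, below all 15 other heart arrays. Low values were not particular to the members on this array, which detected 215 miRNAs. MiR-1a-3p read 10.73, miR-126a-3p 8.34 and miR-16-5p 6.34, where the lowest other heart arrays read 13.64, 11.23 and 9.11.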

How the results depend on the processing

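With storage temperature, which stands for the shared animal of liver and brain, as a fixed block between tissues, the counts were 6, 5 and 5 of 8 for brain against heart, liver against heart and brain against liver, as without this block, and no call of a member changed. Of 1528 values of single miRNAs under another setting, 1257 kept their direction and their side of the threshold, 84 gained significance, 70 lost it, 12 changed sign with a call under either setting, and 105 changed sign without one, 31 of these for storage time at 4 °C. This block and the alternatives without the liver RT slide, its 48 and 96 h arrays or the 0 h liver arrays were chosen after seeing the data.

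For RIN (2 of 8 members called), the count was 7 after 75th percentile scaling over detected miRNAs, quantile normalisation, normexp or with tissue as the block, 8 after 75th percentile scaling over all miRNAs, 4 by pooled Pearson correlation, 1 with the heart 0 h array at 4 °C, and 0 without scaling, with Bonferroni adjustment or for a RIN over 6 only. For the slope at RT (7) it was 3 by pooled Pearson correlation. For RT against 4 °C (6) it was 2 without scaling, 0 with Bonferroni adjustment, 3 without the 96 h arrays and 2 without the liver RT slide. For RT slopes between tissues (7) it was 2 with Bonferroni adjustment and 0 without the liver RT slide. For degraded against intact arrays (0), normexp gave 2 in heart, 5 in liver and 1 in brain. In liver both 75th percentile scalings gave 2, quantile normalisation 4, and leaving out single arrays 0 to 5, with 5 without the 3 h array and 2 without the 6 h array. For brain against liver (5) it was 8 under both 75th percentile scalings, quantile normalisation and normexp, and 3 on all 45 arrays. These counts are of members only, without the share of all miRNAs called under each setting, and the cause was not tested.

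Where a call was involved, signs changed for miR-223-3p with RIN (-0.015 without scaling, -0.19 for a RIN over 6 only) and between liver and heart (0.031, quantile); for miR-155-5p at RT (-0.0065 per h without the liver RT slide, -0.028 without its 48 and 96 h arrays), between RT and 4 °C (-0.026 without these arrays) and between brain and liver (0.64 without scaling); for miR-150-5p between brain and heart (-0.55 with 75th percentile scaling over all miRNAs, -0.40 normexp); and for miR-146a-5p between liver and heart (0.65 with 75th percentile scaling over detected miRNAs, 0.76 quantile, 0.57 normexp).

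Scaling also moved the calls over all miRNAs. The share of calls that were lower was 62.5% for RIN (44.98% to 51.2% with other scalings, 98.9% without), 46.7% at RT (46.7% to 59.0%, 14.98%), 60.2% for RT against 4 °C (42.0% to 66.6%, 14.5%), 31.8% for brain against heart (29.0% to 53.7%, 25.2%), 82.2% for liver against heart (47.0% to 69.7%, 92.2%) and 20.1% for brain against liver (32.6% to 48.4%, 6.54%). The median of all miRNAs was 0.44, -0.60 and 1.11 in these 3 tissue contrasts and ranged from -0.02 to 0.49, -0.44 to 0.00 and 0.00 to 1.18 under the others. Values near background, as for miR-155-5p in brain and liver, limit what can be measured there.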
